A study of Drosophila melanogaster with 2 samples.

Results

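The genes described here are dl, Dif and Rel, which encode the NF-kB transcription factors of Drosophila melanogaster, and cact, which encodes Cactus, the inhibitor of Dorsal and Dif. They were chosen by name from the 13968 protein-coding genes annotated on the chromosome arms, and each was taken with 5 kb of sequence on either side of its gene body, a stretch called its window below. The 4 windows held 53 candidate regions of the pooled list, and 12 of these belonged to the authors' list of 2718 reproducible regions.

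The regions come from ChIP-seq of whole larvae of the third instar at the wandering stage, males and females together. All larvae carried a transgene in which the transcript form dl-RC ends in GFP (strain dl-small-GFP), and per the labels GFP was the antibody's target, although 1 label field names dl. There were 2 biological replicates, numbered 3 and 1, with fragments of 175 to 275 bp and 200 to 275 bp, and no group without the transgene was analysed here. Whole larvae mix many tissues, and the lists do not tell in which of them a region was bound. The transgene itself holds dl sequence, and its reads and those of the native gene cannot be told apart in these lists.

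In the Toll pathway the ligand Spätzle activates the receptor Toll, and signalling through Myd88, Tube and Pelle leads to destruction of Cactus. Dorsal (dl) and Dif, which Cactus holds in the cytoplasm, then enter the nucleus. Dorsal patterns the embryo along its dorsoventral axis, and in larvae both factors act in immunity against fungi and Gram-positive bacteria. Relish (Rel) is the factor of the Imd pathway, which responds to peptidoglycan of Gram-negative bacteria. It carries its own inhibitory ankyrin repeats, which are cut off upon activation.

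Each region has a summit, the position of strongest enrichment, and a signal, the authors' enrichment of ChIP over control. Regions were ranked by signal within a list, with 1 as the highest. The authors' lists comprised 2 single lists, each called on 1 ChIP alignment (list A with 30000 regions and list B with 29999), a pooled list of 29999, and the thresholded list selected from the pooled one by the irreproducible discovery rate. No source used here ties list A or list B to a replicate number. Read depth is unknown, and regions of 1 gene are not replicates. Signals were not normalised between lists, so lists are compared by rank. With a single condition no differential test was possible, and with genes chosen by name no enrichment test was run. Shares have exact Clopper-Pearson 95% intervals, which cover counting error only.

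The reference sequence (dm6, plus strand, 5′ to 3′) around the summits of the reproducible regions in dl, Dif and cact is shown first, because positions and motifs are described from it. Each line holds up to 50 bases on either side of a summit, shortened where a 5′ UTR is annotated. Capitals mark GAGAG or CTCTC, the core of the GAGA repeat, and matches to the kappaB form GGGNNNNCC (or with 1 more base N) on either strand. All 4 genes are transcribed from the minus strand. Both summits in the Rel window lay in 5′ UTRs and their sequence is not shown.

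dl start, chr2L:17450365-17450453: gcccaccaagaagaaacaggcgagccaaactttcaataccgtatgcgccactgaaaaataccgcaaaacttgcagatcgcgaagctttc

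dl first intron, chr2L:17449824-17449875: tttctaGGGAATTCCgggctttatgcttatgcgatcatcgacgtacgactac

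dl upstream of dl-RE, chr2L:17448612-17448712: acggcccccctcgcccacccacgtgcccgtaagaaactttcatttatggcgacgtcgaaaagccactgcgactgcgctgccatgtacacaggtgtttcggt

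Dif intron, upstream, chr2L:17431097-17431197: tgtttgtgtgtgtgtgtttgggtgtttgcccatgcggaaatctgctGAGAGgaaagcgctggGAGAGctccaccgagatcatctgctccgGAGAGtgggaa

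Dif intron, middle, chr2L:17430411-17430511: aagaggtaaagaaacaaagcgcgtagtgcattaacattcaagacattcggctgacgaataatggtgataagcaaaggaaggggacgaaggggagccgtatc

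Dif intron, lncRNA:CR44409, chr2L:17429853-17429953: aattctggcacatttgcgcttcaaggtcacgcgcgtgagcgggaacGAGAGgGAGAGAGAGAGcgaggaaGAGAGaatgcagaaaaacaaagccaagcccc

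Dif start of Dif-RA, chr2L:17428215-17428315: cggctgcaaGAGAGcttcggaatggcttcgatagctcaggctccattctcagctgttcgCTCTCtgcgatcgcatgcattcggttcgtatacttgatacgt

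cact first intron, chr2L:16325905-16326005: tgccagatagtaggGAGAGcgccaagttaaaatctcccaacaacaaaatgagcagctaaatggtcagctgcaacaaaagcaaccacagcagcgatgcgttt

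cact long intron, middle, chr2L:16319818-16319918: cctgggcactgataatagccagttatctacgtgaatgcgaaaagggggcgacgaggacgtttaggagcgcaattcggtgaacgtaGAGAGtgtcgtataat

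cact long intron, far, chr2L:16315205-16315305: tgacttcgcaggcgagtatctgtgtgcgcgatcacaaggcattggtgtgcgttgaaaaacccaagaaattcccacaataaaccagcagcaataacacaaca

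All 4 genes had at least 1 reproducible summit in their window, where 23.1% of protein-coding genes had one. Dif held 4, dl and cact 3 each, and Rel 2. Of protein-coding genes, 8.8% had 2 or more, 3.71% had 3 or more and 1.74% had 4 or more. Windows differ in length with the gene, from 13.8 kb at Rel to 29.9 kb at Dif, so these shares are not adjusted for length. Per 10 kb of window there were 1.27 reproducible summits at dl, 1.34 at Dif, 1.45 at Rel and 1.29 at cact, against 0.196 over all arms. The value for the arms covers their whole length, including sequence far from genes, so it is not one for windows of protein-coding genes. Of the 2 summits at Rel, 1 lay near a start of the neighbouring gene Kdm2.

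**Figure D1:**
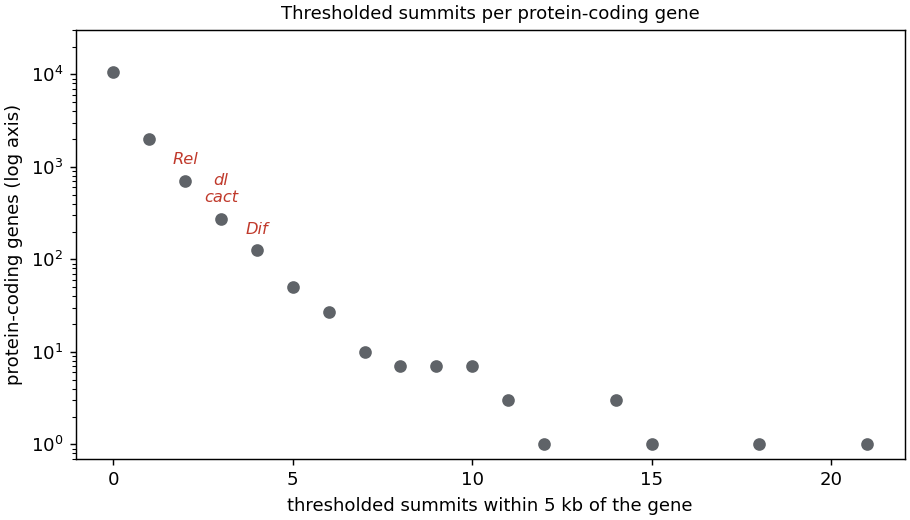
Number of protein-coding genes (log axis) by the number of thresholded summits within 5 kb of the gene, with the 4 genes named above the point they belong to. The first point, with no summit, holds 10740 genes, and the 4 genes sit at 2 (Rel), 3 (dl and cact) and 4 (Dif).

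Of the 53 pooled candidates in the windows, 12 passed the authors' threshold (22.6%, 95% interval 12.3 to 36.2%), where 8.98% of all candidates on the arms did. Of the 12 summits, 10 lay inside the body of 1 of the genes. The share of all reproducible summits inside a gene body was not counted. By signal, 10 of the 12 ranked within the first 1000, where the whole reproducible list holds 2718 regions. Their signals ran from 73.9 to 361.3, with 10 at or above the median of all thresholded regions, 119.5, and the highest value on the arms was 2824. The lowest lay just inside the threshold, whose lowest signal was 73.3, and the strongest candidate of the windows that was left out, in cact, had 63.7.

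dl (FBgn0260632, 2L 17436830 to 17450364) has 6 annotated transcripts from 3 start sites, and the tagged form dl-RC begins at the most upstream of them, 17450364. The 3 reproducible regions lay within 1741 bp at this upstream end. One summit, at 17450403, was 39 bp upstream of the start of dl-RC, in intergenic sequence between dl and the divergent lncRNA:CR46204. Its signal was 238.5 in the pooled list (rank 452), 143.6 in list A (rank 269) and 145.8 in list B (rank 415). The list B summit was at the same base, but the list A region began at 17450413 and did not contain the pooled summit. Its own summit was 120 bp away at 17450523, in the exon of lncRNA:CR46204 and 29 bp from that gene's start.

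The strongest region of dl had its summit at 17449874, in the first intron 490 bp downstream of the same start. Its signal was 249.3 in the pooled list (rank 421), 83.5 in list A (rank 766) and 175.5 in list B (rank 298). An annotated exon of dl reaches to 17449876, beside the pooled summit, and the list B summit at 17449881 lay in this exon's 5′ UTR. The single lists cut this region short on opposite sides, at 17449869 in list A and from 17449875 in list B, so that the pooled summit fell in neither although both overlapped the region. The summit at 17448662 lay 152 bp upstream of the start of dl-RE and was the weakest, with 99.1 in the pooled list (rank 1769), 29.3 in list A (rank 3980) and 69.2 in list B (rank 1506). In list A that summit lay 127 bp away from the pooled one and its rank was beyond the first 2718. The start site shared by dl-RD and dl-RF, at 17445567, had no reproducible summit within 1 kb, and no candidate of the pooled list lay between the gene's 3′ end and 17448539.

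Dif (FBgn0011274, 2L 17413248 to 17433161) lies next to dl on the same strand, with 3668 bp between the genes, so their windows share 6332 bp. That shared stretch held 1 pooled candidate and no reproducible region. All 4 reproducible regions of Dif lay inside the gene and within 2882 bp, in the intron that separates the distal start of Dif-RD (17433161) from the start of the other 3 transcripts (17428199). In each single list all 4 were among the first 1034 regions.

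The strongest region in the 4 windows had its summit at 17429903, inside the exon of lncRNA:CR44409, a noncoding transcript that runs opposite to Dif within its intron, 197 bp from the start of that transcript. Its signal was 361.3 in the pooled list (rank 198), 175.7 in list A (rank 164) and 234.3 in list B (rank 162). It lay 1704 bp from the nearest start of Dif. The summit at 17428265 was 66 bp upstream of the start of Dif-RA, Dif-RB and Dif-RC and had 233.1 in the pooled list (rank 467), 106.7 in list A (rank 484) and 118.9 in list B (rank 617).

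The other two regions of Dif lay further up the intron. The summit at 17430461 had 177.5 in the pooled list (rank 737), 108.0 in list A (rank 471) and 95.3 in list B (rank 894). The summit at 17431147 had 170.5 in the pooled list (rank 789), 69.2 in list A (rank 1034) and 99.9 in list B (rank 825), and was 2014 bp downstream of the start of Dif-RD. Neither lay within 500 bp of an annotated start, and the start of Dif-RD itself had no reproducible summit within 1 kb.

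Rel (FBgn0014018, 3R 9044183 to 9047977) is the shortest of the 4 genes and lies inside the longer gene Nmdmc, which encodes a mitochondrial enzyme of folate metabolism and runs in the same direction. One reproducible summit lay in the gene, at 9047780 in the 5′ UTR, 49 bp downstream of the start of Rel-RB and 197 bp downstream of the most upstream start, that of Rel-RA. Its signal was 172.1 in the pooled list (rank 776), 41.8 in list A (rank 2230) and 125.5 in list B (rank 548). It ranked lower in list A than in list B.

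The second summit in the Rel window, at 9052537, lay 4560 bp upstream of Rel and 42 bp from a start of Kdm2, which encodes a histone demethylase. It had 73.9 in the pooled list (rank 2687), 29.3 in list A (rank 3974) and 42.0 in list B (rank 3585), beyond the first 2718 of both. It belongs to the window by distance and not by annotation to Rel.

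cact (FBgn0000250, 2L 16313036 to 16326207) held 3 reproducible regions spread along 10700 bp of the gene. The summit at 16325955 was in the first intron, 146 bp downstream of the start of cact-RA, with 199.2 in the pooled list (rank 606), 79.6 in list A (rank 815) and 109.5 in list B (rank 717). The other two lay in the long intron, far from any annotated start. The summit at 16319868 was 5552 bp from the nearest start and had 213.7 in the pooled list (rank 544), 118.6 in list A (rank 395) and 105.7 in list B (rank 752). The summit at 16315255 had the highest signal of the gene, 260.1 in the pooled list (rank 391), 96.5 in list A (rank 584) and 174.4 in list B (rank 303).

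That far intronic summit lay 10165 bp downstream of the nearest start of cact. Its nearest annotated start of any gene, 4299 bp away, was that of fzy, the neighbour at the 3′ end, which encodes the cell cycle regulator Fizzy. In cact, both long-intron regions were at least as strong as the first-intron region in the pooled list and in list A. In list B 1 of them was.

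**Figure D2:**
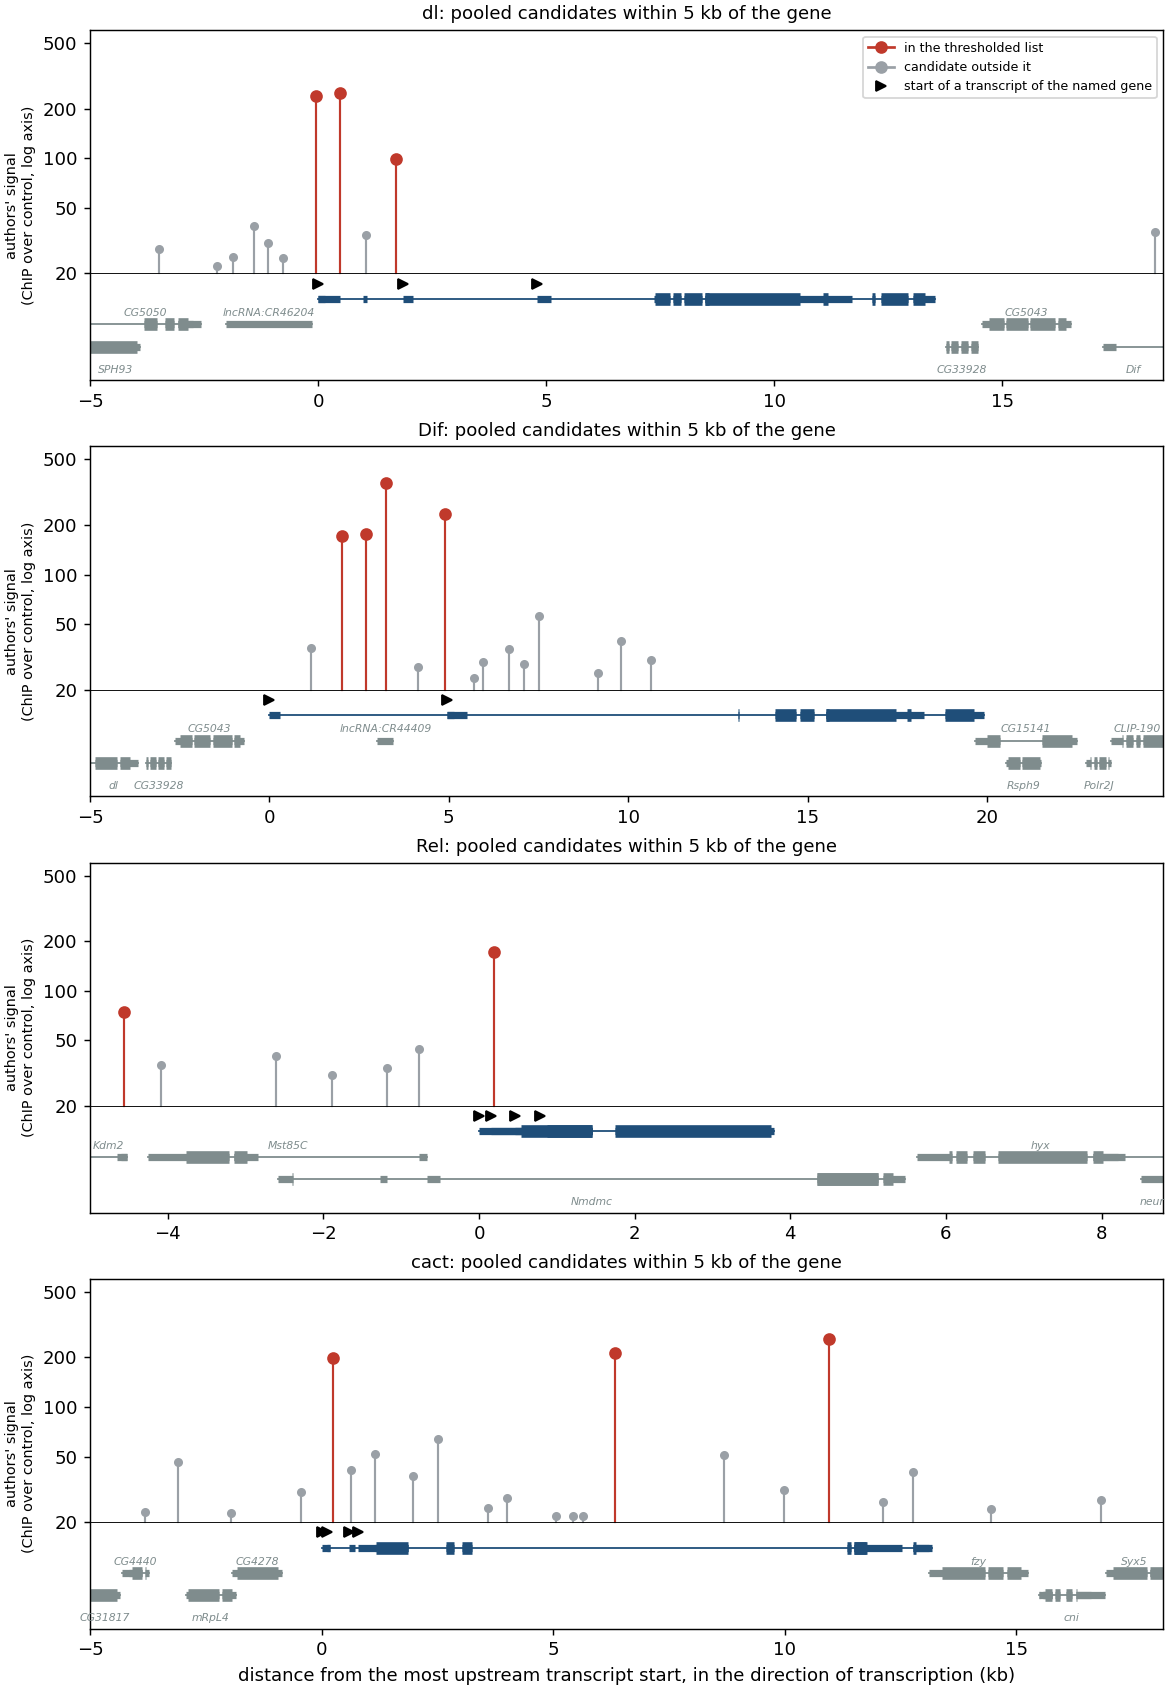
Pooled candidates by distance from the most upstream transcript start of dl, Dif, Rel and cact (kb, in the direction of transcription), with the authors' signal on a log axis. Red points are in the thresholded list and grey points are not. Below, thick blue boxes are coding exons, thinner boxes other exons, grey boxes neighbouring genes and arrowheads transcript starts. The red points of dl and Dif lie in or just beside the upstream part of each gene, those of cact spread over 10700 bp, and the Rel window has 1 at the gene and 1 at Kdm2.

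Annotated starts were within 500 bp of 8 of the 12 summits (66.7%, 95% interval 34.9 to 90.1%), against 55.4% of all reproducible regions on the arms. With protein-coding starts alone the number was 7, as the summit in lncRNA:CR44409 had no coding start so near. The interval of the 8 includes the share over all regions.

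The single lists held the same regions in most cases. All 12 regions overlapped a candidate of list A and of list B. Of the 2690 reproducible regions on the arms, 2656 overlapped one of list A and 2653 one of list B. The median distance between summits was 22 bp to list A and 7 bp to list B. Over all reproducible regions that overlapped one it was 12 and 6 bp. The pooled summit lay in one of the 2718 best regions of both lists for 8 of the 12 (66.7%, 95% interval 34.9 to 90.1%), against 58.3% on the arms. The summits that did not were all 3 of dl and the one at Kdm2. The windows of all 4 genes held at least 1 of the 2718 best regions of list A and of list B. Taking each list alone, 24.3% of protein-coding genes had such a region for list A and 24.3% for list B. The share with both was not counted. Any overlap with one of those best regions, in place of the summit, gave 10 of 12, against 60.9% on the arms. The regions left out were then the one upstream of dl-RE, outside the best of list A, and the one at Kdm2, outside the best of both. The pooled list was called on the same alignments as list A and list B, so the lists are not independent.

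**Figure D3:**
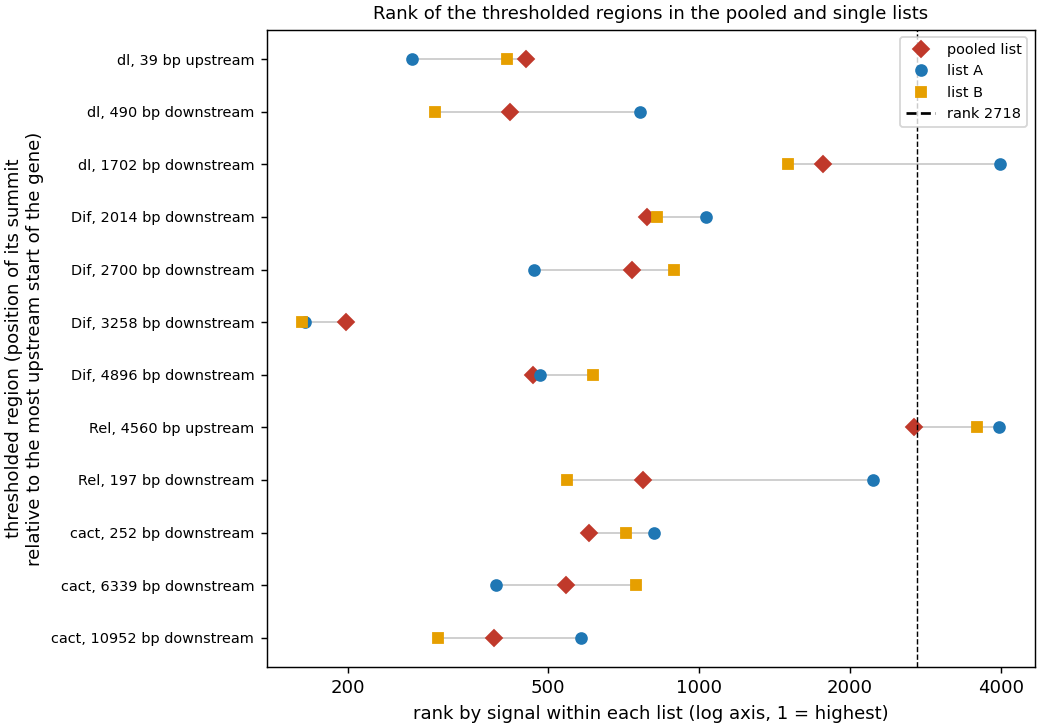
Rank by signal (log axis, 1 is the highest) of the 12 thresholded regions in the pooled list, list A and list B, each named by gene and by the distance of its summit from the gene's most upstream start. The dashed line is rank 2718. The point of list A lies beyond it for the region 1702 bp downstream in dl, and both single lists lie beyond it for the region 4560 bp upstream of Rel, while the other 10 regions stay within it in all 3 lists.

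Of the 41 candidates in the windows that did not pass, signals ran from 21.7 to 63.7 with a median of 30.4. cact had 19 of them and its window the most candidates in all, 22, followed by Dif with 10 of 14, dl with 8 of 11 and Rel with 5 of 7. The strongest was in an intron of cact at 16323697, with 63.7 in the pooled list (rank 3368), rank 20863 in list A and rank 3148 in list B. Overlap with the best 2718 regions of each single list was not counted for all such candidates on the arms. Of the 41, 2 overlapped one of those of list A and 0 one of those of list B. Those 2 were at 9048748, upstream of Rel and 97 bp from a start of Nmdmc (list A rank 2137, pooled rank 6233), and at 17451131, in the exon of lncRNA:CR46204 beside dl (list A rank 2242, pooled rank 21235). No candidate of list B overlapped either of them. Of the 41, 10 lay within 500 bp of an annotated start (24.4%, 95% interval 12.4 to 40.3%), against 21.4% of all pooled candidates on the arms that did not pass. GAGAGAG was within 100 bp of 2 of them (4.88%), against 5.58%.

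Along the body of dl, the gene that the transgene tags, the single lists differed in how many candidates they held. List B had 13 with the summit in the gene, list A 4 and the pooled list 3. Of those in list B, 11 overlapped no reproducible region, with ranks from 3487 to 29322, and 2 of these 11 had the summit in an exon. Of all 13968 protein-coding genes, 71 had at least as large an excess of list B over list A in the gene body, a count that depends on gene length. In cact the numbers were 17 in list B, 11 in list A and 16 in the pooled list, and in Dif they were 15, 9 and 14, while Rel had 1, 3 and 1. Of these list B candidates, 14 in cact, 11 in Dif and 0 in Rel overlapped no reproducible region. Counted over the whole windows, list A had 9 candidates at dl, 9 at Dif, 11 at Rel and 12 at cact, and list B had 23, 21, 5 and 24, with 7 in the stretch that dl and Dif share. One of the shared ones, at 17433347, was 186 bp upstream of the start of Dif-RD (list B rank 3534). Both single lists held about 2.18 candidates per 10 kb of the arms. The part of the transgene in these numbers was not tested.

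**Figure D4:**
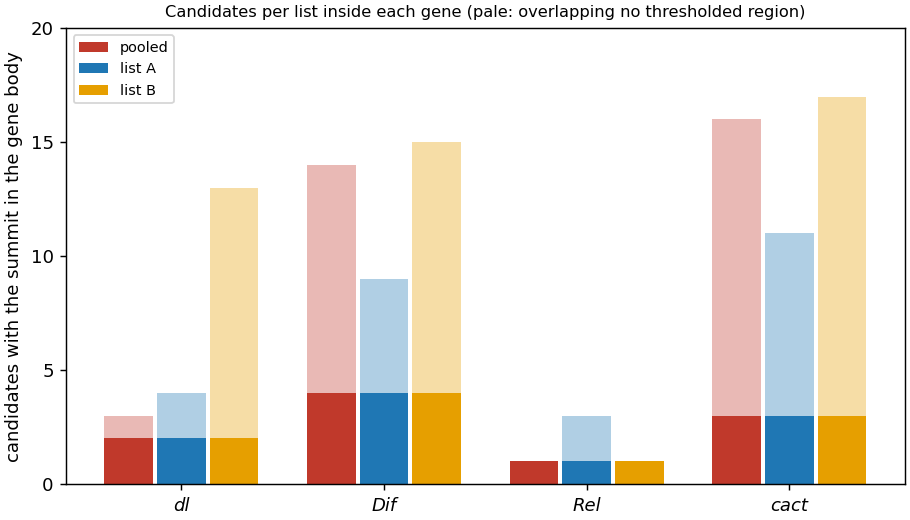
Candidates with the summit inside dl, Dif, Rel and cact in the pooled list, list A and list B, as bars from 0. The dark part overlaps a thresholded region and the pale part does not. In dl the pale part is 1 for the pooled list, 2 for list A and 11 for list B. For list B it is 11 in Dif, 14 in cact and 0 in Rel.

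Sequence near the summits was searched on both strands within 100 bp for the dl consensus, for the wider kappaB form GGGNNNNCC, also with 1 more base N in the middle, and for GAGAGAG. Every match to the dl consensus, the site form of Dorsal, also matches the wider form. GAGAGAG is a binding sequence of GAGA factor, among other proteins. A match is a description of letters and does not show that a protein was bound.

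No reproducible summit in the windows had the dl consensus within 100 bp. That is 0 of 12, whose exact interval reaches 26.5% (the simpler limit of 3 counts over the total allows a share of up to 25%), and 1.52% of all reproducible regions on the arms had one. The wider kappaB forms were present at 3 of 12 (25%, 95% interval 5.49 to 57.2%), against 18.5% on the arms. One was GGGAATTCC in the first intron of dl, 40 bp from the summit at 17449874 and printed in capitals above. Another was GGGGTTTTCC in the long intron of cact, 77 bp from the summit at 16319868. GGGAATTCC in dl and the GGGTTTTCC within this cact match fit the dl consensus except at its last base. The remaining matches lay near the summit at Kdm2.

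GAGAGAG was present at 2 of the 12 summits (16.7%, 95% interval 2.09 to 48.4%), against 43.9% of reproducible regions on the arms, a share inside that interval. The repeat at the strongest Dif region, in the exon of lncRNA:CR44409, began 2 bp from the summit and was 11 bp long. The repeat in the first intron of dl was 8 bp long and 88 bp from its summit, outside the sequence printed above. GC content within 100 bp of the summits ran from 41.3 to 57.7% with a median of 48.5%, against a median of 49.8% on the arms.

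The windows did hold the dl consensus away from the reproducible regions. There were 11 distinct matches, 1.31 per 10 kb against 0.654 per 10 kb of the arms, with 5 in the window of cact, 3 each in those of dl and Rel, and 1 in that of Dif, which lies in the stretch shared with dl and is also among the 3 of dl. None was inside a reproducible region and 2 were inside a pooled candidate, where 0.478% and 5.52% of all 9001 matches on the arms were.

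The match closest to a pooled summit was in an intron of cact at 16324209 to 16324219, 16 bp from the summit of a candidate that did not pass (signal 38.2, rank 8399). Its sequence was GGGAATTTCCC, and list B had a candidate over it (rank 5095) while list A had none. The other match inside a pooled candidate, GGGTTTTCCA at 17452121 to 17452130, was in the exon of lncRNA:CR46204 beside dl, 108 bp from a summit of signal 25.3 (rank 20335), and list A had a candidate over it at rank 7401.

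In dl itself the match GGGAATTTCCA at 17446850 to 17446860, in an intron, was 6 bp from a list B summit of rank 3487 and had no candidate in list A or the pooled list. In the distal intron of Dif the match GGGATAAACCC at 17432742 to 17432752 was 23 bp from a list B summit of rank 8596, also with none in list A or the pooled list. Within cact the match GGGAAAACCC at 16321341 to 16321350 was in a list A candidate of rank 20317 alone, and GGGAATTCCC at 16316677 to 16316686 was in no candidate. The matches inside Rel, GGGTTAACCA at 9044231 to 9044240 in a coding exon and GGGTAAACCA at 9046512 to 9046521 in an intron, were in no candidate of any list. The other 3, in coding exons of fzy and hyx and at 16320216 to 16320225 in the long intron of cact, 352 bp from a reproducible summit, were also in none.

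Among the other genes of the Toll pathway, 9 of the 20 found in the annotation had a reproducible summit within 5 kb (45%, 95% interval 23.1 to 68.5%), against 23.1% of protein-coding genes. The latter share equals the lower limit of the interval as rounded, and windows were not matched for length. The strongest summits were near spz, the Toll ligand (295.1, 92 bp from its start), wek, which encodes an adaptor of Toll (201.0), and psh, a protease upstream of Spätzle (179.4). Those near wek and psh were nearest to starts of Gli and CG15046. The strongest near tub and grass were likewise nearest to starts of other genes, CG34112 and Men-b. The strongest of Pli lay inside Pli itself, and its nearest start, that of snRNA:U1:95Ca, was 9900 bp away. The first genes of the list without one were pll, the kinase Pelle, and the peptidoglycan recognition genes PGRP-SA and PGRP-SD. Of the 9 genes, 2 had 2 or more summits and 1, Pli, had 3, where Rel had 2, dl and cact 3 and Dif 4.

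Among the other genes of the Imd pathway, 5 of 14 had one (35.7%, 95% interval 12.8 to 64.9%), against 23.1% of protein-coding genes, a share inside that interval. The strongest were near imd, the adaptor that names the pathway (367.8, 34 bp from its start), Tab2 (132.9) and Tak1 (129.4), which act together as a kinase complex. The summit near PGRP-LE was nearest to a start of sd. PGRP-LF, Fadd and Dredd were the first in the list without one, and 1 gene, the receptor gene PGRP-LC, had 3. These counts were not tested against the background, and the lists were chosen with earlier results known.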

How the data were processed

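ChIP-seq regions of 1 group with 2 replicates were analysed in dm6. Per the deposited description files, the authors called 2 candidate lists on single ChIP alignments, 1 on the pooled alignments, each with a control alignment, and selected the thresholded list from these 3. The sources used here name no aligner, caller, version or threshold. The signal is the authors' enrichment per region as deposited, and the summit is the region start plus the deposited offset. The dm3 lists were not used.

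Genes and starts were taken from the Ensembl annotation (BDGP 6.54, release 115), leaving out pseudogenes and transposable elements. Sequence was read from RefSeq's copy of the assembly. No region ended beyond its arm. Python 3.11.15 and scipy 1.17.1 were used, and the code was tested on simulated data. The genes, lists and counts were chosen with earlier results of these data known. Every pooled candidate in the 4 windows was counted, and those of the single lists are given as totals. Of the pathway genes, the 3 of highest signal and the first 3 without a summit were named in each list. Genes with 3 summits, or whose strongest summit was nearest to another gene's start, were named too. Tollip was not found in the annotation. Alternatives were other windows, overlap rules, thresholds, single lists, promoter distances and motif windows.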

Additional observations from a re-analysis of the deposited data

How the results depend on the processing

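Of 51 alternatives over 10 counts or shares, 42 stayed within 1.5 times the value above (for the share, within its interval). The counts of Dif and cact were among them under every alternative tried. Some alternatives could not have moved a value. The count of 0 for the dl consensus could not rise within 50 bp or with regions at or above the median signal. That signal limit also could not change Dif or cact, whose lowest signals were 170.5 and 199.2. With list A alone dl had 3 and Rel 2, but not the same regions: it had 17451138 in lncRNA:CR46204 (rank 2242) and not the region upstream of dl-RE (rank 3980), and 9048811 at Nmdmc (rank 2137) and not the one at Kdm2 (rank 3974). With 10 kb on each side, dl had 7 reproducible summits, as its window then took in the 4 of Dif, and Rel had 7. Rel had 1 with the gene body only, with 1 kb on each side, with regions at or above the median signal, and with list B alone, each time without the region at Kdm2. GAGAGAG within 50 bp was at 1 summit, and the wider kappaB forms were at 1 within 50 bp and at 5 within 250 bp. No paired analysis was possible because there was 1 group. Unknown read depth limits what a missing candidate can show.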
